A study of Mus musculus with 18 samples.

Results

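Imprinted genes were followed through the first 24 h of differentiation of mouse pluripotent stem cells that carried or lacked Hmga2, an architectural chromatin protein. Of the 45706 genes in the count table, 40 were taken because their symbols stand on a list of established mouse imprinted genes, a list chosen with earlier results of these data known. They lie in 17 imprinted clusters or single loci. Of the 40, 21 are known to be expressed mainly from the paternal allele, 18 mainly from the maternal allele, and Gnas from either allele depending on the isoform. A filter on low counts left 37 of them for testing, and Airn, Slc22a3 and Rtl1 are given by their values alone. RNA was sequenced from 18 libraries, 3 from each of 6 groups, which were Hmga2 wt cells, the Hmga2 KO clone KO#1 and the Hmga2 KO clone KO#2, each before (0 h) and after 24 h of culture toward EpiLCs (epiblast-like cells). The wt libraries came from 1 clone and each KO line is also 1 clone, so an effect of the genotype and a difference between clones cannot be told apart. Cells at 0 h were induced pluripotent stem cells (iPSCs) kept over inactivated fibroblast feeders with leukaemia inhibitory factor and the inhibitors PD0325901 and CHIR-99021 (2i). For the induction, cells were plated on Geltrex, a basement membrane matrix, with Activin A and bFGF, so the change of cell state and the loss of the feeder layer cannot be told apart between the time points. The counts do not separate the parental alleles, and the values are the total RNA of each gene. The allele classes are those known for each gene, and whether they hold in these cells was not measured. How the KO alleles were built is not given in the sources used here.

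In an imprinted cluster, DNA methylation set in the germ line on either the maternal or the paternal copy of a control region decides which parental copy of each gene is transcribed, often through a long noncoding RNA that silences its neighbours in cis. The zinc finger protein Zfp57 binds the sequence TGCCGC when it is methylated and, with Trim28, protects these marks while the rest of the early embryo's genome loses methylation. Many imprinted genes control fetal and placental growth, and their methylation is known to be unstable in cultured pluripotent cells.

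Promoter windows from RefSeq (GRCm38.p6), each reaching from 250 bases before to 50 bases after a transcription start, are shown for members on which the results turn. Mest and Nnat rose and Plagl1 fell in all 3 lines during the induction, Peg3 rose in all 3 lines and differed between lines, and Kcnq1ot1 was higher in the libraries labelled KO#2 than in both other lines at either time. Letters run 5′ to 3′ on the strand of the gene, and capitals mark TGCCGC or its reverse complement GCGGCA.
Mest, chr6:30737800-30738099, plus strand: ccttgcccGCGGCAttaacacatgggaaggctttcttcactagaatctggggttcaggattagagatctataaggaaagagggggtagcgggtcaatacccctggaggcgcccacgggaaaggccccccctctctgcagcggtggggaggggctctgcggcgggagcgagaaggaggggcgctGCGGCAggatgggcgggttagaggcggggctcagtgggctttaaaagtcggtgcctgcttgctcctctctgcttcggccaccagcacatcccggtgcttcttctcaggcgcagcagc
Nnat, chr2:157559828-157560127, plus strand: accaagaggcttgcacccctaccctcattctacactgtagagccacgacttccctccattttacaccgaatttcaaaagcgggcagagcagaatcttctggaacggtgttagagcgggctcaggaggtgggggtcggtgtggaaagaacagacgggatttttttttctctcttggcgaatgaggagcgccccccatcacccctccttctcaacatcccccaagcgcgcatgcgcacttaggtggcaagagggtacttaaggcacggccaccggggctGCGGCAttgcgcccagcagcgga
Plagl1, chr10:13090582-13090881, plus strand: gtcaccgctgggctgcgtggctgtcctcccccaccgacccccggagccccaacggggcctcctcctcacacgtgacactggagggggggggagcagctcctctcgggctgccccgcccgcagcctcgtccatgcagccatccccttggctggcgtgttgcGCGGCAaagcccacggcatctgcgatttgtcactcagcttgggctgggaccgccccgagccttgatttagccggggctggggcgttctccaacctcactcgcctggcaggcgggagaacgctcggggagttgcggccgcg
Peg3, chr7:6730370-6730669, minus strand: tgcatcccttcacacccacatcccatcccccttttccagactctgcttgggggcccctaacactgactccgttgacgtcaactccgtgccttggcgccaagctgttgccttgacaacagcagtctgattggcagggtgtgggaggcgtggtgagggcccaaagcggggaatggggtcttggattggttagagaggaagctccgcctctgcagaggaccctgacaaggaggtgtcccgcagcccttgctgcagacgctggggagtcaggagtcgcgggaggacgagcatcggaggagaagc
Kcnq1ot1, chr7:143296498-143296797, minus strand: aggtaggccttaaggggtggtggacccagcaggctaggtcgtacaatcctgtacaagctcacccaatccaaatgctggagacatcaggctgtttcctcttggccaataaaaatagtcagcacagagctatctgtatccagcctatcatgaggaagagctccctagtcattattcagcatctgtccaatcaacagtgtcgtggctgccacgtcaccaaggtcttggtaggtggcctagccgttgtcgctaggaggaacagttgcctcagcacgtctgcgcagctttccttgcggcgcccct
The Mest window shown held 2 copies of the motif, as did another Mest window that begins 3 bases further on, and the remaining Mest window, chr6:30733256-30733555, held 0. The windows of Nnat and Plagl1 held 1 each, and those of Peg3 and Kcnq1ot1 held 0. Both strands were searched, and the motif overlaps no other motif searched here. Over all members with a window of their own, 12 of 34 (35.3%) held it in at least 1 window, against 13.1% of 27025 genes. Cdkn1c, H19, Peg10, Rtl1 and Sgce had no entry in the table, and Impact was not used here. By windows of the same 300 bases, the motif was in 13 of 50 member windows (26%) and in 11.6% of 32851 windows. A match is a description of these letters, and methylation was not measured here. Sequence outside these windows was not searched, so a window with 0 copies does not show that a control region lacks the motif.

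The targeted gene was read first. Hmga2 (ENSMUSG00000056758) had 17.4, 13.3 and 22.3 CPM in replicates 1, 2 and 3 of wt cells at 0 h and 5.86, 5.51 and 5.93 CPM at 24 h, where CPM is the count scaled to a common library total, each total being corrected by its TMM factor. KO#1 had 10.2, 4.59 and 1.75 CPM at 0 h and 3.67, 2.25 and 0.871 CPM at 24 h, all below the wt libraries of the same time. The other KO clone had 4.10, 1.84 and 8.24 CPM at 0 h, below wt cells, and 10.4, 3.02 and 3.47 CPM at 24 h, with 1 library above and 2 below the wt libraries. At 24 h its log2 fold change against wt cells was -0.04 (SE 0.60, edgeR adjusted p = 0.966), so this clone is called "the libraries labelled KO#2" throughout. Reads outside a deleted part of the gene would still be counted, and RNA is no measure of the protein. Library totals ranged from 3466436 to 23872837, so that 3 counts, the smallest level treated as detected, lay between 0.116 and 0.983 CPM; this floor covers counting error only. The 18 libraries carried pluripotency markers: Pou5f1 was between 471 and 1672 CPM in all of them, and Nanog was between 351 and 957 CPM at 0 h and between 12.0 and 113 CPM at 24 h. Fgf5, a marker of formative epiblast, was at or under 0.521 CPM at 0 h and between 3.16 and 22.2 CPM at 24 h. Sox2 was lower and Otx2 higher at 24 h in each line, without overlap. Zfp42 marks naive pluripotency. It had 38.0, 46.0 and 43.6 CPM in wt cells at 0 h and 42.6, 40.5 and 31.1 CPM at 24 h. KO#1 had 107, 106 and 148 CPM of Zfp42 at 0 h and 192, 153 and 106 CPM at 24 h. The other KO clone had 123, 168 and 99.7 CPM at 0 h and 64.1, 105 and 75.0 CPM at 24 h. Its time points overlapped in each line, and both KO lines lay above wt cells at either time. The libraries labelled KO#2 also differed in make-up. Their 20 most abundant genes held 16.5% to 23.7% of the counts, against 23% to 56.6% in the other libraries. Against wt cells, the genes in the longest 20% by exon length had a median log2 fold change of 0.44 at 0 h and 0.63 at 24 h in these libraries, while the median of all genes was 0.10 and 0.20. Genes of the GENCODE type TEC (443 tested), unverified gene models, had medians of 1.45 and 2.40. Of these, 332 lie inside a protein-coding gene on its strand, with medians of 1.56 and 2.56, and what they count was not tested. The time points differed in make-up as well. From 0 h to 24 h the shortest 20% of genes had medians of 0.83 in wt cells, 0.609 in KO#1 and 0.107 among the libraries labelled KO#2. The longest 20% had -0.41, -0.43 and -0.21, and TEC genes -1.42, -1.63 and -0.605. The part of these differences in make-up in the results was tested only through a correction for exon length, chosen after the data had been seen.

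Tests were made with edgeR's quasi-likelihood method over all 16619 genes that passed the filter. A gene is called higher or lower where its p-value, adjusted by Benjamini-Hochberg over those genes, was under 0.05, and every adjusted p-value in the text is of this kind, those of the relations with the fibroblast score apart. Log2 fold changes are fitted values given with their standard error (SE). Replicates are 3 independent biological replicates by the study's account. Because the KO lines were compared with the same wt libraries, the values of both lines against wt cells share their controls. Strand use in the counting is not given in the sources used here, and 24 of the 40 members overlap a gene on the other strand, so their counts are uncertain to that extent. The pairs include Igf2r and Airn, Mest and Copg2, Nnat and Blcap, Zrsr1 and Commd1, Igf2 and Igf2os, Gnas and Nespas, Nap1l5 and Herc3, and Kcnq1ot1 and Kcnq1. In bulk RNA, fewer cells that express a gene and less RNA per cell cannot be told apart.

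**Figure D1:**
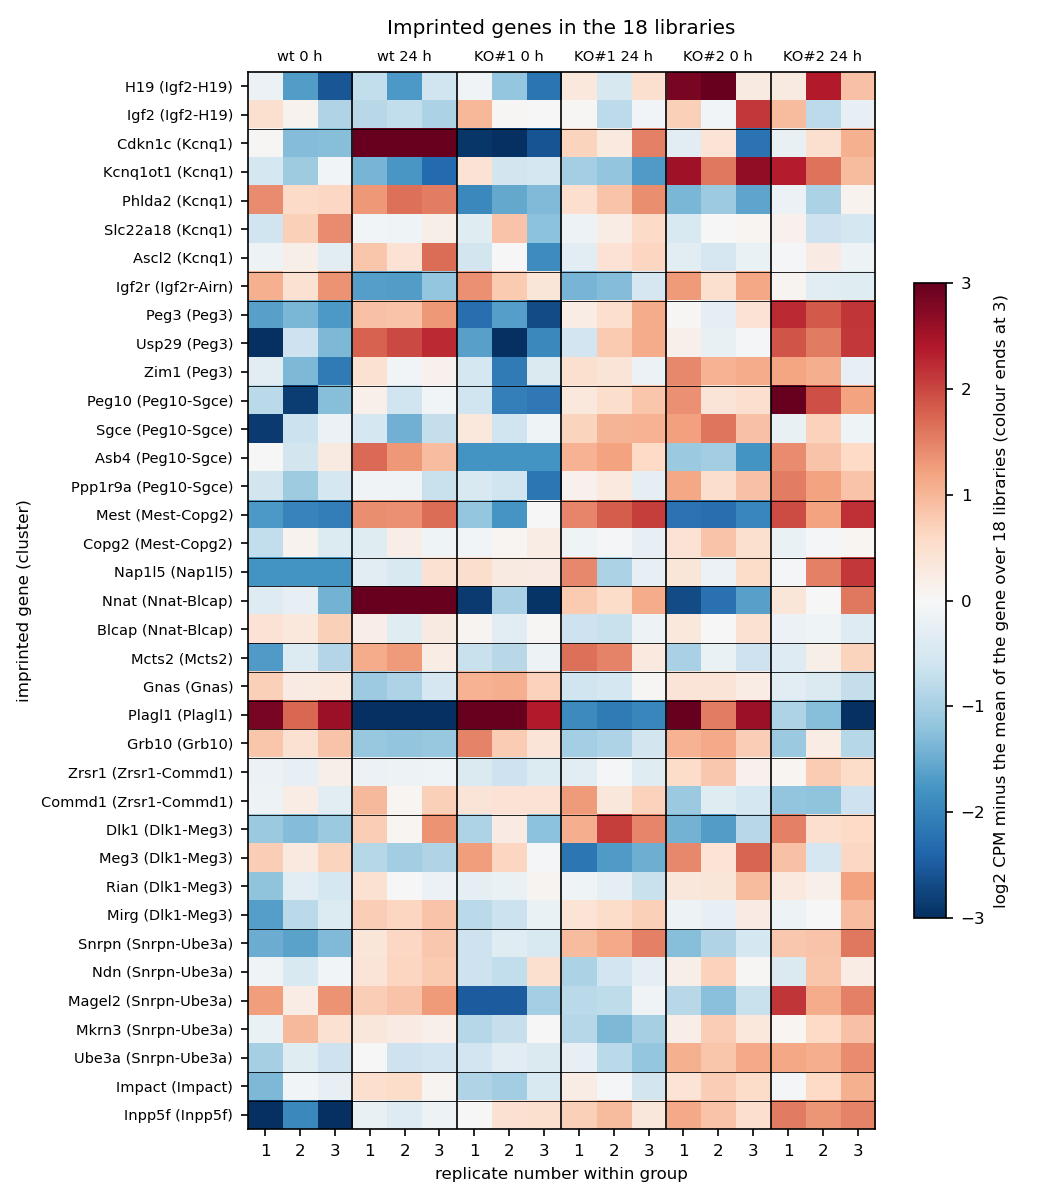
Each row is 1 of the 37 tested imprinted genes, grouped by cluster, and each column 1 of the 18 libraries; colour is the log2 CPM minus the mean of that gene over all libraries, with colours ending at 3. Plagl1, Igf2r, Grb10 and Gnas are lower at 24 h in every line, Mest, Nnat, Peg3, Usp29 and Snrpn are higher, and Kcnq1ot1 and Ube3a are highest in the 6 libraries labelled KO#2.

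With 24 h of induction more imprinted genes were called higher than lower in each line. In wt cells 22 of the 37 were called, 16 higher and 6 lower, where 26% of all genes were called higher and 24.7% lower. KO#1 had 19 calls, 13 higher and 6 lower, against 20.1% of all genes higher and 20.6% lower. In the libraries labelled KO#2, 16 were called, 10 higher and 6 lower, against 12.7% and 13.3%. The median log2 fold change of the members was 0.69 in wt cells, 0.68 in KO#1 and 0.12 among the libraries labelled KO#2, beside medians over all genes of 0.03, 0.00 and -0.03. With genes at 0 in a whole group set to their bound, the wt median was 0.64. Asb4, Dlk1, Mest, Nnat, Peg3, Snrpn and Usp29 rose in all 3 lines, Gnas, Grb10, Igf2r and Plagl1 fell in all 3, 7 members were called in 2 lines, 10 in 1 and 9 in none. Of the 19 tested paternally expressed members, 12 were called in wt cells, 10 higher and 2 lower, with a median of 1.28 (log2). KO#1 had 10 calls among them, 8 higher and 2 lower, and the libraries labelled KO#2 the same counts. The 17 tested maternally expressed members had 9 calls in wt cells (6 higher, 3 lower, median 0.43), 8 in KO#1 (5 and 3, median 0.42) and 5 among the libraries labelled KO#2 (2 and 3, median -0.21). Without TMM factors, on library sizes alone, the split was 11 higher and 8 lower in wt cells, 9 and 13 in KO#1, and 8 and 3 among the libraries labelled KO#2, in a setting that moved the median of all genes by -0.62, -0.79 and -0.03.

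**Figure D2:**
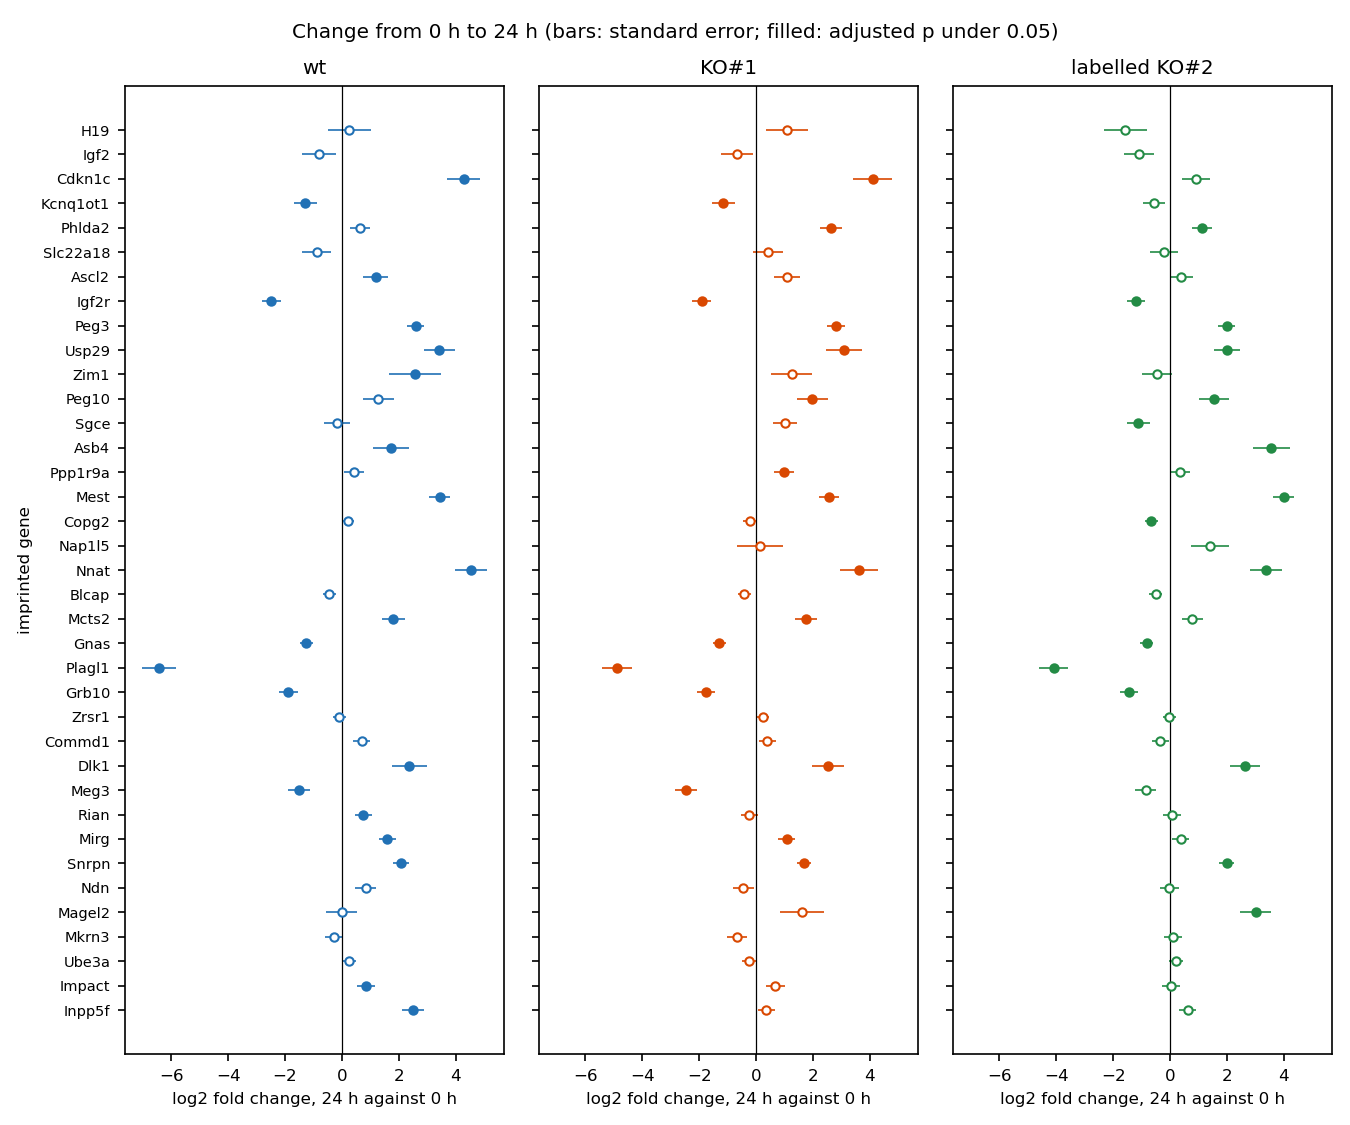
Fitted log2 fold change of 24 h against 0 h for each tested imprinted gene in wt cells, KO#1 and the libraries labelled KO#2; bars are standard errors and filled points have an adjusted p under 0.05. Nap1l5 in wt cells and Asb4 in KO#1 are left out because all libraries at 0 h had 0 counts; Plagl1 has the lowest value in each panel.

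The 4 members that fell in all 3 lines are Plagl1, Igf2r, Grb10 and Gnas. Plagl1, a zinc finger transcription factor that restrains proliferation and regulates other imprinted genes, fell the furthest of the members in each line. Plagl1 had 85.9, 39.7 and 71.0 CPM in wt cells at 0 h and 0.704, 0.901 and 0.679 CPM at 24 h. KO#1 had 102, 97.7 and 62.8 CPM at 0 h and 3.08, 2.66 and 2.98 CPM at 24 h. Plagl1 had 99.5, 35.0 and 72.3 CPM at 0 h and 6.21, 4.87 and 1.04 CPM at 24 h in the libraries labelled KO#2. The time points were far apart in every line, and at 24 h the wt libraries were the lowest. The log2 fold change was -6.43 (SE 0.59, adjusted p = 4.9e-07) in wt cells, -4.90 (SE 0.53, adjusted p = 4.18e-06) for KO#1 and -4.09 (SE 0.50, adjusted p = 2.01e-05) among the libraries labelled KO#2. Igf2r, the receptor that takes up and degrades the growth factor IGF2, had 226, 149 and 274 CPM in wt cells at 0 h and 34.6, 33.6 and 48.1 CPM at 24 h. KO#1 had 282, 187 and 139 CPM of Igf2r at 0 h and 41.2, 43.7 and 76.4 CPM at 24 h. Igf2r had 264, 150.2 and 240.4 CPM at 0 h and 115, 85.2 and 84.2 CPM at 24 h in the libraries labelled KO#2. No 24 h library reached the 0 h level of its line, and the libraries labelled KO#2 stayed the highest at 24 h. Igf2r fell with time in every line, with log2 fold changes of -2.48 (SE 0.34, adjusted p = 2.02e-05) in wt cells, -1.91 (SE 0.33, adjusted p = 0.000309) for KO#1 and -1.203 (SE 0.32, adjusted p = 0.0107) among the libraries labelled KO#2. The last call was lost on leaving out in turn the libraries labelled KO#2 0 h replicate 1 (-1.04) and KO#2 24 h replicate 3 (-1.12).

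Grb10, an adaptor protein that dampens insulin and IGF receptor signalling, had 94.4, 73.0 and 96.4 CPM in wt cells at 0 h and 24.0, 23.5 and 24.1 CPM at 24 h. KO#1 had 149, 90.2 and 69.1 CPM of Grb10 at 0 h and 26.0, 28.1 and 36.5 CPM at 24 h. Grb10 had 111, 117 and 89.6 CPM at 0 h and 24.5, 61.8 and 29.6 CPM at 24 h in the libraries labelled KO#2. It was lower at 24 h in all 3 lines without overlap, at -1.88, -1.76 and -1.45 (log2; adjusted p = 0.000163, 0.000453 and 0.00263). Gnas, which encodes the stimulatory G protein alpha subunit and several imprinted isoforms, had 103, 74.5 and 76.3 CPM in wt cells at 0 h and 29.2, 33.0 and 43.8 CPM at 24 h. Its log2 fold change was -1.26 (SE 0.23, adjusted p = 0.000292) in wt cells, -1.29 (SE 0.23, adjusted p = 0.000398) for KO#1 and -0.81 (SE 0.23, adjusted p = 0.0131) among the libraries labelled KO#2. The last value lost its call without the library labelled KO#2 24 h replicate 3 (-0.70). Gene counts pool the isoforms of Gnas and of Grb10, which differ in their imprinting. Airn, the noncoding RNA that silences Igf2r in cis in many tissues, had at most 0.690 CPM in any library, and Slc22a3, a cation transporter in that cluster, at most 0.809 CPM.

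Of the 7 members that rose in all 3 lines, Mest, Nnat, Snrpn, Peg3, Usp29 and Dlk1 are paternally expressed. Mest, which encodes a hydrolase-fold protein of mesoderm, had 13.4, 11.01 and 10.5 CPM in wt cells at 0 h and 118, 115 and 142 CPM at 24 h. KO#1 had 19.9, 12.9 and 45.1 CPM of Mest at 0 h and 124, 158 and 187 CPM at 24 h. Mest had 9.46, 9.16 and 11.4 CPM at 0 h and 173, 103 and 203 CPM at 24 h in the libraries labelled KO#2. The lines overlapped at 24 h, and at 0 h the highest library was replicate 3 of KO#1. The log2 fold change was 3.44 (SE 0.38, adjusted p = 2.84e-06) in wt cells, 2.57 (SE 0.36, adjusted p = 5.1e-05) for KO#1 and 3.99 (SE 0.38, adjusted p = 1.61e-06) among the libraries labelled KO#2; without KO#1 0 h replicate 3, the highest library of that group, it was 3.24 in KO#1. Copg2, a coatomer subunit on the opposite strand, overlaps the 3' end of Mest. Its log2 fold change was 0.21 in wt cells and -0.22 in KO#1, neither called, and -0.66 (SE 0.22, adjusted p = 0.0341) among the libraries labelled KO#2, where the call was lost on leaving out in turn the libraries labelled KO#2 0 h replicate 1 (-0.74), KO#2 0 h replicate 2 (-0.52), KO#2 0 h replicate 3 (-0.72), KO#2 24 h replicate 1 (-0.59), KO#2 24 h replicate 2 (-0.67) and KO#2 24 h replicate 3 (-0.71), and with the correction for exon length (-0.56).

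Nnat, a neuronal membrane proteolipid, had 1.31, 1.47 and 0.584 CPM in wt cells at 0 h and 24.3, 18.2 and 32.2 CPM at 24 h. KO#1 had 0.130, 0.835 and 0.117 CPM of Nnat at 0 h and 3.16, 2.66 and 3.98 CPM at 24 h. Nnat had 0.162, 0.270 and 0.479 CPM at 0 h and 2.30, 1.74 and 5.51 CPM at 24 h in the libraries labelled KO#2. It rose in every line, and both KO lines stayed below all wt libraries at 24 h. The log2 fold change was 4.53 (SE 0.56, adjusted p = 8.02e-06) in wt cells, 3.62 (SE 0.68, adjusted p = 0.000552) for KO#1 and 3.38 (SE 0.55, adjusted p = 0.000286) among the libraries labelled KO#2. In KO#1 it was 4.66 without 0 h replicate 2 and 2.96 without 0 h replicate 3, and for those labelled KO#2 it was 2.72 without 24 h replicate 3. Blcap, a small membrane protein whose gene contains Nnat on the other strand, was between 7.15 and 18.8 CPM in all libraries, and its log2 fold changes of -0.44, -0.41 and -0.51 were not called. Snrpn, which encodes a spliceosomal protein and is counted over a locus that also holds Snurf, had 44.6, 41.1 and 50.2 CPM in wt cells at 0 h and 162, 194 and 218 CPM at 24 h. Its log2 fold change was 2.08 (SE 0.27, adjusted p = 1.12e-05) in wt cells, 1.69 (SE 0.26, adjusted p = 0.000123) for KO#1 and 2.00 (SE 0.26, adjusted p = 4.2e-05) among the libraries labelled KO#2.

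Peg3 and Usp29 share a bidirectional start, and both rose. Peg3, a zinc finger protein of maternal behaviour and growth, had 67.9, 81.2 and 63.4 CPM in wt cells at 0 h and 387, 379 and 518 CPM at 24 h. KO#1 had 44.0, 67.0 and 32.6 CPM of Peg3 at 0 h and 248, 299.6 and 455 CPM at 24 h. Peg3 had 217, 176 and 286 CPM at 0 h and 998, 761 and 938 CPM at 24 h in the libraries labelled KO#2. The libraries labelled KO#2 lay above both other lines at either time. The log2 fold change with time was 2.59 (SE 0.31, adjusted p = 6.24e-06) in wt cells, 2.81 (SE 0.31, adjusted p = 5.94e-06) for KO#1 and 1.99 (SE 0.30, adjusted p = 0.000147) among the libraries labelled KO#2. Usp29, a ubiquitin protease with a transcript of low level, had 0, 0.917 and 0.5001 CPM in wt cells at 0 h and 5.39, 6.21 and 7.47 CPM at 24 h. The change of Usp29 was 3.43 (SE 0.56, adjusted p = 0.000101) in wt cells, 4.08 without wt 0 h replicate 2, 3.11 (SE 0.63, adjusted p = 0.00105) for KO#1 and 1.99 (SE 0.46, adjusted p = 0.00421) among the libraries labelled KO#2. Zim1, the maternally expressed zinc finger gene next to Peg3, was at or under 1.42 CPM in all libraries. Its wt libraries held 1, 1 and 0 counts at 0 h and 11, 4 and 8 at 24 h, a ratio of pooled rates of 6.9 (95% exact counting interval 1.71 to 60.4). The fitted change of 2.56 (adjusted p = 0.0258) was not called on leaving out in turn wt 0 h replicate 2 (2.70), wt 0 h replicate 3 (1.72) and wt 24 h replicate 1 (2.34), and it was 3.32 without wt 0 h replicate 1.

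**Figure D3:**
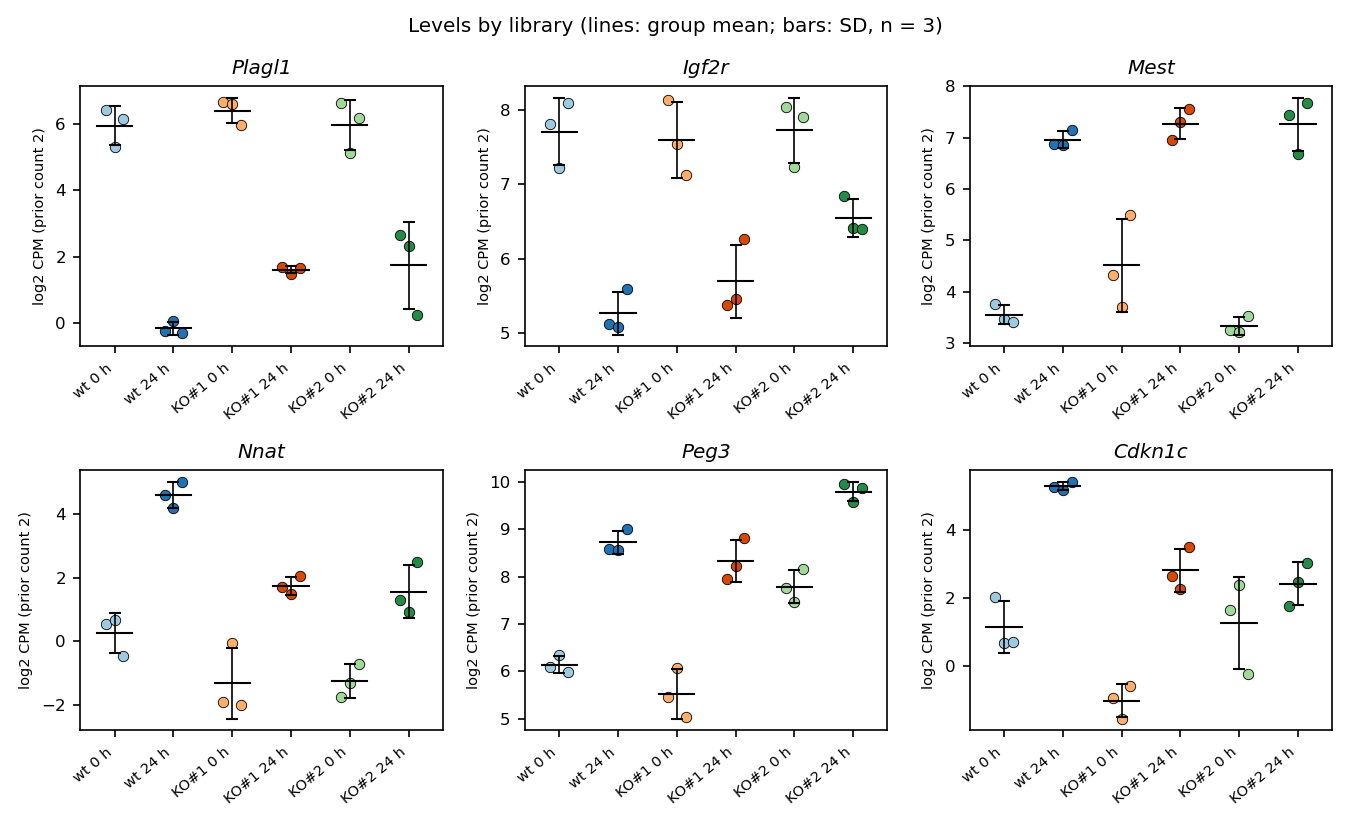
Log2 CPM of Plagl1, Igf2r, Mest, Nnat, Peg3 and Cdkn1c in each library by group; lines are group means and bars the SD of 3 libraries. Plagl1 and Igf2r are lower and Mest, Nnat and Peg3 higher at 24 h in every line, while Cdkn1c at 24 h is highest in wt cells, at 38.5, 35.8 and 42.5 CPM.

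Cdkn1c was the 1 member whose response was called different between lines. It encodes p57Kip2, a maternally expressed inhibitor of cyclin-dependent kinases. Cdkn1c had 3.93, 1.47 and 1.5 CPM in wt cells at 0 h and 38.5, 35.8 and 42.5 CPM at 24 h. KO#1 had 0.391, 0.209 and 0.525 CPM of Cdkn1c at 0 h and 6.10, 4.70 and 11.2 CPM at 24 h. Cdkn1c had 3.00, 5.08 and 0.719 CPM at 0 h and 3.24, 5.41 and 8.07 CPM at 24 h in the libraries labelled KO#2. The wt libraries at 24 h lay above every other library, and in the libraries labelled KO#2 the time points overlapped. The change with time was 4.28 (SE 0.59, adjusted p = 2.2e-05) in wt cells, 4.10 (SE 0.67, adjusted p = 0.000205) for KO#1 and 0.92 (SE 0.50, adjusted p = 0.183) among the libraries labelled KO#2. As an interaction term, the response of the libraries labelled KO#2 minus that of wt cells was -3.35 (SE 0.75, adjusted p = 0.0324), the only member called of 37, where 0.951% of all genes were called higher and 0.517% lower. This call was lost on leaving out in turn wt 0 h replicate 2 (-3.12), wt 0 h replicate 3 (-3.11), wt 24 h replicate 1 (-3.35), wt 24 h replicate 2 (-3.38), wt 24 h replicate 3 (-3.24), the libraries labelled KO#2 0 h replicate 1 (-3.34), KO#2 0 h replicate 2 (-2.71), KO#2 24 h replicate 1 (-3.09) and KO#2 24 h replicate 2 (-3.33). In KO#1 minus wt cells 0 members were called by edgeR, beside 0.253% of all genes higher and 0.138% lower. There 7 members had an unadjusted p under 0.05, and DESeq2 called 2. The shares of all genes by those measures were not taken, so neither count is a result about the members. In the same contrast Cdkn1c was at -0.18 (SE 1.03, adjusted p = 0.983) by edgeR. Among the other members, the response of Inpp5f was -2.14 (SE 0.48, adjusted p = 0.0603) in KO#1 and -1.89 (SE 0.48, adjusted p = 0.0547) among the libraries labelled KO#2 minus that of wt cells, and that of Magel2 was 3.01 (SE 0.75, adjusted p = 0.0515) in the latter. On library sizes alone the interaction of the libraries labelled KO#2 had 3 calls, 2 higher and 1 lower, and with the correction for exon length 3, which were Cdkn1c, Inpp5f at -2.08 (adjusted p = 0.0413) and Magel2 at 2.92 (adjusted p = 0.046).

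The other genes of the Kcnq1 cluster on chromosome 7 moved in different directions. Kcnq1ot1, the paternally expressed noncoding RNA that silences this cluster in cis, had 55.1, 37.9 and 74.8 CPM in wt cells at 0 h and 30.0, 23.5 and 15.6 CPM at 24 h. Its change was -1.28 (SE 0.40, adjusted p = 0.0134) in wt cells, -1.15 (SE 0.40, adjusted p = 0.0283) for KO#1 and -0.57 (SE 0.39, adjusted p = 0.302) among the libraries labelled KO#2. The wt call was lost without wt 0 h replicate 3 (-1.002) and the KO#1 call on leaving out in turn KO#1 0 h replicate 1 (-0.74), KO#1 24 h replicate 2 (-1.21) and KO#1 24 h replicate 3 (-0.98). With the correction for exon length the values were -0.68 and -0.43, and neither was called. Phlda2, a maternally expressed restrainer of placental growth, had 10.5, 5.78 and 6.001 CPM in wt cells at 0 h and 9.73, 12.4 and 11.5 CPM at 24 h, a change of 0.64 that was not called. KO#1 had 0.912, 1.25 and 1.46 CPM of Phlda2 at 0 h and 5.51, 7.05 and 10.3 CPM at 24 h, a rise of 2.62 (SE 0.38, adjusted p = 7.69e-05). Phlda2 had 1.42, 1.75 and 1.198 CPM at 0 h and 3.39, 1.93 and 4.17 CPM at 24 h in the libraries labelled KO#2, a rise of 1.11 (SE 0.35, adjusted p = 0.0243), which was not called on leaving out in turn the libraries labelled KO#2 0 h replicate 1 (1.09), KO#2 0 h replicate 3 (0.99), KO#2 24 h replicate 1 (1.06) and KO#2 24 h replicate 3 (0.86), nor with the correction for exon length (1.01). Ascl2, a transcription factor of the trophoblast, rose in wt cells from 2.62, 3.30 and 2.33 CPM to 5.28, 4.01 and 9.69 CPM (log2 fold change 1.197, SE 0.44, adjusted p = 0.0296). That call was lost on leaving out in turn wt 0 h replicate 1 (1.14), wt 0 h replicate 3 (1.07) and wt 24 h replicate 3 (0.70), and with the correction for exon length (0.86). The values of 1.10 in KO#1 and 0.40 among the libraries labelled KO#2 were not called. Slc22a18, a transporter, stayed between 0.583 and 4.42 CPM with no call in any comparison.

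In the Dlk1-Meg3 cluster on chromosome 12, Dlk1 rose in all 3 lines, and Meg3 fell in wt cells and KO#1. Dlk1, a paternally expressed inhibitory ligand of the Notch family, had 0.328, 0.275 and 0.333 CPM in wt cells at 0 h and 1.52, 0.901 and 2.41 CPM at 24 h. It rose by 2.38 in wt cells, 2.52 for KO#1 and 2.62 among the libraries labelled KO#2 (log2; adjusted p = 0.0042, 0.00223 and 0.00148), from levels of 1.04 CPM or less. Meg3, the maternally expressed noncoding RNA that starts the transcription unit of the cluster's microRNAs, had 114, 84.5 and 109 CPM in wt cells at 0 h and 37.9, 33.5 and 36.7 CPM at 24 h. KO#1 had 166, 108 and 65.6 CPM of Meg3 at 0 h and 15.1, 21.2 and 24.9 CPM at 24 h. Meg3 had 188, 91.5 and 231 CPM at 0 h and 126, 48.8 and 106 CPM at 24 h in the libraries labelled KO#2. The time points did not overlap in wt cells and KO#1, and did among the libraries labelled KO#2. Meg3 changed by -1.51 (SE 0.38, adjusted p = 0.00337) in wt cells and -2.47 (SE 0.39, adjusted p = 0.000157) in KO#1, and by -0.86 (SE 0.37, adjusted p = 0.0953) among the libraries labelled KO#2, which was not called. With the correction for exon length the wt value was -0.93, still called. Rian and Mirg, noncoding RNAs downstream on the same strand that carry small nucleolar RNAs and microRNAs, lie in the same cluster. Mirg had 12.8, 23.0 and 30.1 CPM in wt cells at 0 h and 66.8, 62.7 and 72.9 CPM at 24 h, and rose by 1.59 (SE 0.30, adjusted p = 0.000408) there and by 1.08 (SE 0.30, adjusted p = 0.00865) in KO#1. Rian rose in wt cells by 0.75 (SE 0.31, adjusted p = 0.0493), a call lost on leaving out in turn wt 0 h replicate 1 (0.50), wt 0 h replicate 3 (0.81), wt 24 h replicate 1 (0.53), wt 24 h replicate 2 (0.77) and wt 24 h replicate 3 (0.83), and had uncalled values of -0.23 and 0.06 in the other lines. Rtl1, a retroelement-derived gene needed in the placenta and antisense to several microRNA genes, had 0 counts in the 3 libraries of KO#1 at either time and at most 0.955 CPM in any library. At 24 h it had 0.626, 0.387 and 0.955 CPM in the libraries labelled KO#2, at least 2.76-fold above the floor of KO#1.

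At the Peg10-Sgce locus on chromosome 6, Peg10, a retroelement-derived gene of the placenta, had 67.9, 16.3 and 48.7 CPM in wt cells at 0 h and 131, 78.1 and 111 CPM at 24 h. KO#1 had 78.3, 28.4 and 26.8 CPM of Peg10 at 0 h and 146, 171 and 211 CPM at 24 h. Peg10 had 306, 154 and 168 CPM at 0 h and 1093, 449.5 and 273 CPM at 24 h in the libraries labelled KO#2. The wt time points did not overlap, yet the wt change of 1.28 was not called (adjusted p = 0.0517), and with the correction for exon length it was 1.51 (adjusted p = 0.0181), called. The rise was 1.98 (SE 0.54, adjusted p = 0.00776) in KO#1, or 2.68 without 0 h replicate 1. In the libraries labelled KO#2 it was 1.53 (SE 0.53, adjusted p = 0.0399), and the call was lost on leaving out in turn the libraries labelled KO#2 0 h replicate 2 (1.36), KO#2 0 h replicate 3 (1.40) and KO#2 24 h replicate 1 (0.79). Asb4, a SOCS box protein of blood vessels and placenta, had 0 counts in all 3 libraries of KO#1 at 0 h and 0.808, 0.920 and 0.560 CPM at 24 h. Against the floor of 3 counts per library that was at least 1.92-fold higher. It also rose in wt cells, from 0.328, 0.183 and 0.417 to 1.35, 1.002 and 0.741 CPM (log2 fold change 1.72, SE 0.63, adjusted p = 0.0311), a call lost on leaving out in turn wt 0 h replicate 1 (1.70), wt 0 h replicate 2 (1.38), wt 0 h replicate 3 (2.17), wt 24 h replicate 1 (1.45) and wt 24 h replicate 2 (1.71). In the libraries labelled KO#2 Asb4 went from 2, 2 and 0 counts at 0 h to 21, 18 and 13 counts at 24 h and was called higher (adjusted p = 0.000981). Sgce, a sarcoglycan of muscle and brain that shares its start with Peg10, was called lower with time in the libraries labelled KO#2, at -1.12 (SE 0.40, adjusted p = 0.0487), which was lost on leaving out in turn the libraries labelled KO#2 0 h replicate 1 (-1.14), KO#2 0 h replicate 2 (-0.91), KO#2 24 h replicate 1 (-0.94) and KO#2 24 h replicate 3 (-0.97) and with the correction for exon length (-0.94). Its values, not called, were -0.16 in wt cells and 1.01 in KO#1, the latter called with the correction at 1.40 (adjusted p = 0.016). Ppp1r9a, an actin-binding protein of synapses, rose by 0.998 (SE 0.35, adjusted p = 0.0318) in KO#1, a call lost on leaving out in turn KO#1 0 h replicate 3 (0.59), KO#1 24 h replicate 1 (0.96) and KO#1 24 h replicate 2 (0.85), with uncalled values of 0.43 in wt cells and 0.35 among the libraries labelled KO#2. With the correction for exon length Ppp1r9a was called in wt cells too, at 1.02 (adjusted p = 0.00789), and had 1.75 in KO#1.

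Among the single loci, Mcts2, a retrogene inside H13 that resembles its parent Mcts1, had 4.59, 11.5 and 8.17 CPM in wt cells at 0 h and 32.8, 37.1 and 17.9 CPM at 24 h. It rose by 1.80 (SE 0.40, adjusted p = 0.00147) in wt cells and 1.76 (SE 0.40, adjusted p = 0.0023) in KO#1, with 0.79 in the libraries labelled KO#2. Mcts1 rose by 1.68 and 1.12 in the same lines, and reads shared between parent and retrogene make the split uncertain. Inpp5f, a phosphoinositide phosphatase with an imprinted brain isoform, had 0.328, 1.65 and 0.584 CPM in wt cells at 0 h and 5.63, 5.01 and 5.93 CPM at 24 h. Its rise was 2.50 (SE 0.38, adjusted p = 5.1e-05), or 3.40 without wt 0 h replicate 2, while 0.36 in KO#1 and 0.62 among the libraries labelled KO#2 were not called. Impact, an inhibitor of the kinase Gcn2, rose in wt cells by 0.84 (SE 0.32, adjusted p = 0.0364), a call lost on leaving out in turn wt 0 h replicate 1 (0.51), wt 0 h replicate 3 (0.96), wt 24 h replicate 1 (0.76) and wt 24 h replicate 2 (0.72). In KO#1 it was not called at 0.68, and was called with the correction for exon length at 0.90 (adjusted p = 0.0409). Magel2, a MAGE family gene of the Snrpn cluster, rose in the libraries labelled KO#2, from 0.284, 0.180 and 0.335 CPM to 3.13, 1.47 and 2.00 CPM (log2 fold change 3.00, SE 0.54, adjusted p = 0.00062), and had -0.01 in wt cells and 1.61 in KO#1. Nap1l5, a nucleosome assembly protein relative inside Herc3, had 0 counts in all 3 wt libraries at 0 h and 0.235, 0.200 and 0.494 CPM at 24 h, under the mean floor of 0.503 CPM at 0 h, so no fold is given for its call, which was lost without wt 0 h replicate 2, wt 0 h replicate 3 and wt 24 h replicate 3. The 9 members with no call in any line were H19, Igf2, Slc22a18, Blcap, Zrsr1, Commd1, Ndn, Mkrn3 and Ube3a. Their log2 fold changes ran from -1.57 (H19 in the libraries labelled KO#2) to 1.09 (H19 in KO#1). Of these, Commd1 at 0.96 (adjusted p = 0.015) and Ube3a at 0.84 (adjusted p = 0.0187) were called in wt cells with the correction for exon length.

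Levels of different genes were compared per kilobase of exon, as CPM per kb. In wt cells at 0 h, Igf2r had 23.2 ± 6.75 CPM per kb (mean ± SD, n = 3) and Snrpn 21.0 ± 2.12, the highest of the members, and they were within each other's spread. At 24 h Snrpn had 88.6 ± 13.2 CPM per kb, above Peg3 at 32.1 ± 5.84, Mcts2 at 32.1 ± 11.03 and Mest at 31.7 ± 3.68, which lay within each other's spread. In the libraries labelled KO#2 at 0 h, H19 had 135 ± 124 CPM per kb, with an SD near its mean. Kcnq1ot1, with an exon length of 93092 bp, had 0.601 ± 0.199 CPM per kb in wt cells at 0 h and 4.27 ± 1.53 in the libraries labelled KO#2.

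Before the induction KO#1 differed from wt cells at few imprinted genes. At 0 h 5 of 37 were called, 2 higher and 3 lower, where 3.99% of all genes were called higher and 2.68% lower, with a median log2 fold change of 0.19 beside 0.02 over all genes (0.14 with genes at 0 in a group set to their bound). Inpp5f was higher, at 6.64, 9.18 and 9.34 CPM in KO#1 and 0.328, 1.65 and 0.584 CPM in wt cells (log2 fold change 3.10, SE 0.38, adjusted p = 3.69e-05, and 4.00 without wt 0 h replicate 2). Phlda2 was lower, at 0.912, 1.25 and 1.46 CPM against 10.5, 5.78 and 6.001 CPM (log2 fold change -2.54, SE 0.39, adjusted p = 0.000423). Both genes kept the lines apart without overlap. Magel2 was lower in KO#1 by -3.35 (SE 0.73, adjusted p = 0.00822), with 0, 0 and 0.233 CPM against 1.64, 0.734 and 1.75 CPM in wt cells. That fitted value was -7.34 without KO#1 0 h replicate 3, when the group held 0 counts, and -3.01 without wt 0 h replicate 3, when it was not called (adjusted p = 0.0583). Snrpn was higher in KO#1, at 81.8, 97.0 and 91.8 CPM against 44.6, 41.1 and 50.2 CPM (log2 fold change 0.99, SE 0.26, adjusted p = 0.0254), a call lost on leaving out in turn wt 0 h replicate 1 (0.99), wt 0 h replicate 2 (0.93), wt 0 h replicate 3 (1.08), KO#1 0 h replicate 2 (0.95) and KO#1 0 h replicate 3 (0.98). Asb4 was called lower at 0 counts in KO#1, where wt cells had 0.328, 0.183 and 0.417 CPM, under the mean floor of KO#1, so no fold is given; the call was lost without wt 0 h replicates 1 and 3 and without each KO#1 library.

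The libraries labelled KO#2 differed from wt cells at 0 h at 18 of 37 members, 14 higher and 4 lower, where 21.5% of all genes were called higher and 16.6% lower. The median was 0.59 beside 0.10 over all genes, or 0.56 with bounds. On library sizes alone 21 were called, 19 higher and 2 lower, in a setting that moved the median of all genes by 0.45. Kcnq1ot1 had 459, 235 and 498 CPM in these libraries and 55.1, 37.9 and 74.8 CPM in wt cells at 0 h. The groups were far apart, with a log2 fold change of 2.83 (SE 0.42, adjusted p = 0.000143), and 2.15 with the correction for exon length. Kcnq1, the gene on the other strand, was at or under 0.333 CPM in all 18 libraries. H19, the maternally expressed noncoding RNA next to Igf2, had 294, 656 and 49.5 CPM in these libraries and 36.4, 12.8 and 6.83 CPM in wt cells. The groups did not overlap, and the libraries labelled KO#2 differed widely among themselves (log2 fold change 4.23, SE 0.84, adjusted p = 0.00131). The value was 3.29 without the library labelled KO#2 0 h replicate 2 and 5.07 without wt 0 h replicate 1. Inpp5f had 14.7, 12.0 and 9.44 CPM in the libraries labelled KO#2 at 0 h (log2 fold change 3.63, SE 0.38, adjusted p = 3.73e-06, and 4.53 without wt 0 h replicate 2). Ube3a, a ubiquitin ligase of the Snrpn cluster classed here as maternally expressed, had 130.1, 110.1 and 135 CPM against 30.8, 47.9 and 40.01 CPM in wt cells (log2 fold change 1.65, SE 0.25, adjusted p = 0.000178).

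Peg3 and Peg10 were also higher in the libraries labelled KO#2 at 0 h, by 1.67 (SE 0.30, adjusted p = 0.000628) and 2.25 (SE 0.55, adjusted p = 0.0047). Sgce was higher by 2.01 (SE 0.44, adjusted p = 0.00255), Ppp1r9a by 1.60 (SE 0.35, adjusted p = 0.00273) and Copg2 by 0.90 (SE 0.22, adjusted p = 0.00546), all without overlap. Rian was higher by 1.22 (SE 0.31, adjusted p = 0.00651), or 0.56 with the correction for exon length, when it was not called. Mirg was higher by 0.81 (SE 0.30, adjusted p = 0.0397), a call lost on leaving out in turn wt 0 h replicate 1 (0.54), wt 0 h replicate 2 (0.84), the libraries labelled KO#2 0 h replicate 1 (0.87) and KO#2 0 h replicate 3 (0.66) and with the correction for exon length (0.54). Zim1 had 1.42, 1.03 and 1.10 CPM against 0.328, 0.0917 and 0 CPM, with 2 counts in all in wt cells and a ratio of pooled rates of 15.5 (95% exact counting interval 4.15 to 130). Its fitted difference was 3.74 (SE 0.84, adjusted p = 0.00297), or 4.50 without wt 0 h replicate 1 and 2.90 without wt 0 h replicate 3. Impact was higher by 1.02 (SE 0.32, adjusted p = 0.0201), a call lost on leaving out in turn wt 0 h replicate 1 (0.71) and the libraries labelled KO#2 0 h replicate 2 (0.94). Nap1l5 was called against wt libraries at 0 counts with 0.446, 0.270 and 0.527 CPM, a mean under the floor, so no fold is given, and the call was lost without wt 0 h replicates 2 and 3. Phlda2 was lower at -2.30 (SE 0.36, adjusted p = 0.000218) and Magel2 at -2.29 (SE 0.58, adjusted p = 0.00583), both without overlap. Nnat was lower at -1.81 (SE 0.63, adjusted p = 0.0323), a call lost on leaving out in turn wt 0 h replicate 1 (-1.77), wt 0 h replicate 2 (-1.39), the libraries labelled KO#2 0 h replicate 1 (-1.501) and KO#2 0 h replicate 2 (-1.74). Asb4, at 2, 2 and 0 counts against 1, 2 and 5 in wt cells, was called lower (adjusted p = 0.0361); both groups were under the mean floor, so no fold is given, and the call was lost without wt 0 h replicates 1 and 3 and without replicates 1 and 3 labelled KO#2. The correction for exon length added calls of Snrpn at 0.70 (adjusted p = 0.0411) and Zrsr1 at 0.62 (adjusted p = 0.0455).

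**Figure D4:**
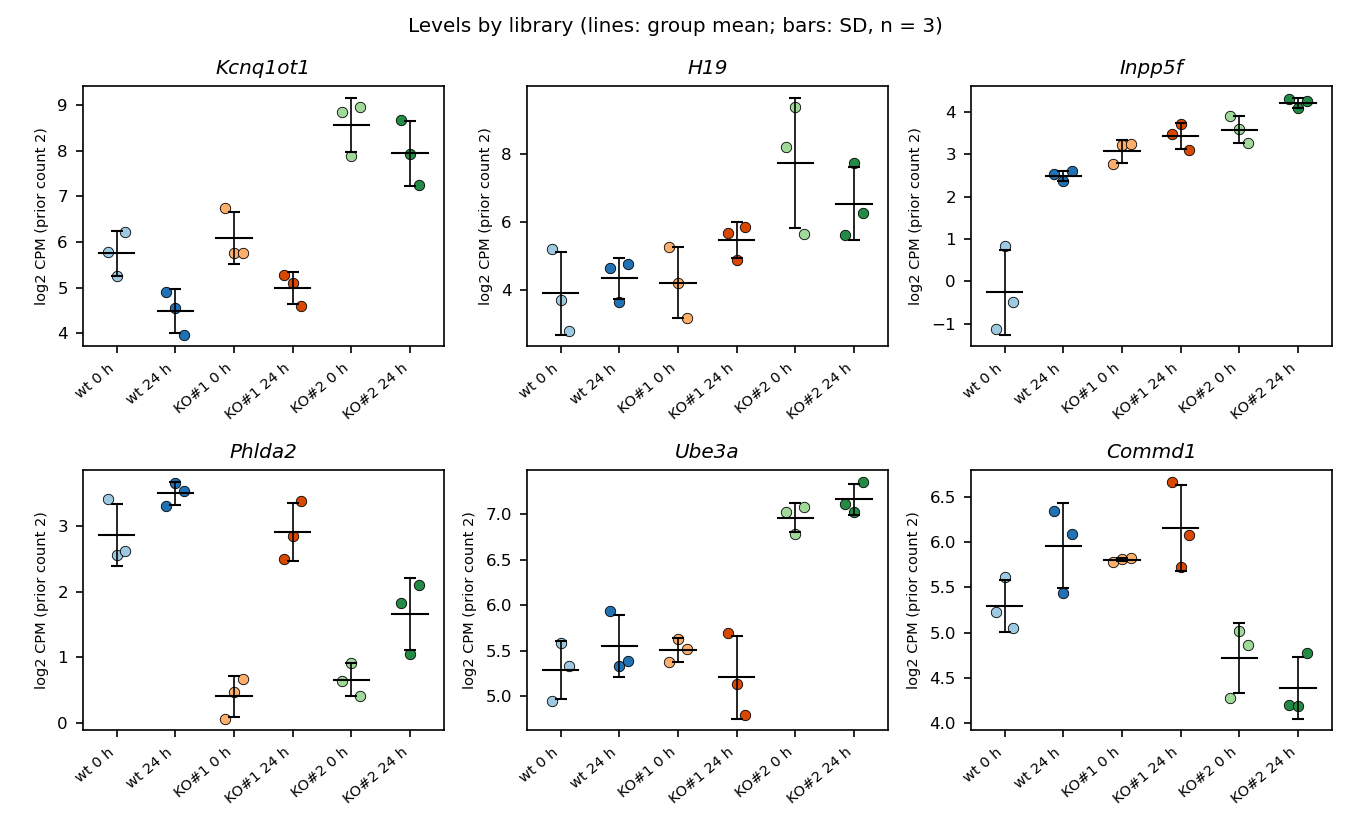
Log2 CPM of Kcnq1ot1, H19, Inpp5f, Phlda2, Ube3a and Commd1 in each library by group; lines are group means and bars the SD of 3 libraries. Kcnq1ot1 and Ube3a are higher in the 6 libraries labelled KO#2 than in all 12 others, and Inpp5f at 0 h is lower in wt cells than in both KO lines.

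At 24 h KO#1 differed from wt cells at 6 of 37 members, 2 higher and 4 lower, beside 6.25% of all genes higher and 3.61% lower. Their median was 0.06 and that of all genes -0.02, and on library sizes alone 2 were higher and 2 lower. Nnat was lower in KO#1, at 3.16, 2.66 and 3.98 CPM against 24.3, 18.2 and 32.2 CPM (log2 fold change -2.92, SE 0.48, adjusted p = 0.000537). Cdkn1c was lower, at 6.10, 4.70 and 11.2 CPM against 38.5, 35.8 and 42.5 CPM (log2 fold change -2.40, SE 0.50, adjusted p = 0.00417). In both genes each KO#1 library was below each wt library. Sgce was higher, at 5.14, 6.64 and 6.72 CPM against 2.17, 1.10 and 1.91 CPM (log2 fold change 1.81, SE 0.43, adjusted p = 0.0109), a call lost without wt 24 h replicate 2 (1.62). Plagl1 was higher in KO#1 by 1.95 (SE 0.58, adjusted p = 0.0371) and was not called on leaving out in turn wt 24 h replicate 1 (1.92), wt 24 h replicate 2 (2.09), wt 24 h replicate 3 (1.93), KO#1 24 h replicate 1 (1.94), KO#1 24 h replicate 2 (2.04) and KO#1 24 h replicate 3 (1.96). Ndn, a MAGE family gene that restrains growth of neurons, was lower at -1.22 (SE 0.35, adjusted p = 0.0346) and was not called on leaving out in turn wt 24 h replicate 1 (-1.30), wt 24 h replicate 2 (-1.18), wt 24 h replicate 3 (-1.07), KO#1 24 h replicate 1 (-1.03), KO#1 24 h replicate 2 (-1.19) and KO#1 24 h replicate 3 (-1.36). Mkrn3, a RING finger protein that holds back puberty, was lower at -1.36 (SE 0.34, adjusted p = 0.0155), a call lost on leaving out in turn wt 24 h replicate 1 (-1.29), wt 24 h replicate 2 (-1.34), KO#1 24 h replicate 2 (-1.21) and KO#1 24 h replicate 3 (-1.36). Ndn, Mkrn3 and Magel2 are neighbours on chromosome 7, and Magel2 had 0.294, 0.306 and 0.560 CPM in KO#1 at 24 h against 1.11, 1.202 and 1.67 CPM in wt cells (log2 fold change -1.73, adjusted p = 0.0586, not called). Same-numbered libraries of these 2 groups varied together, and with the replicate number as a block Magel2 was called at -1.78 (adjusted p = 0.0346), 1 of 7 members called in that fit. With the correction for exon length Magel2 at -1.76 (adjusted p = 0.0431) and Inpp5f at 1.03 (adjusted p = 0.0473) were called as well.

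The libraries labelled KO#2 differed from wt cells at 24 h at 16 of 37 members, 11 higher and 5 lower, where 21.3% of all genes were called higher and 16% lower. The median was 0.52 beside 0.20 over all genes. On library sizes alone 26 were called, 24 higher and 2 lower, in a setting that moved the median of all genes by 1.04. Kcnq1ot1 had 406, 243 and 151 CPM in these libraries against 30.0, 23.5 and 15.6 CPM in wt cells. It was apart at 24 h as at 0 h (log2 fold change 3.54, SE 0.43, adjusted p = 1.75e-05, and 2.55 with the correction for exon length). The limit of that correction at the length of Kcnq1ot1 holds here too. TEC genes inside a protein-coding gene had a median of 2.56 in the same comparison. Ube3a had 138, 130.1 and 164 CPM against 61.3, 40.2 and 41.5 CPM (log2 fold change 1.59, SE 0.25, adjusted p = 0.000137), and with the correction for exon length 0.70 (adjusted p = 0.0577). Snhg14, the long RNA that runs through the Snrpn cluster and antisense to Ube3a, was higher in these libraries by 2.98 at 0 h and 2.81 at 24 h (adjusted p = 0.000354 and 0.00027), and their reads cannot be told apart without strand. Meg3 was higher by 1.38 (SE 0.38, adjusted p = 0.00867), Peg3 by 1.07 (SE 0.29, adjusted p = 0.00872) and Ppp1r9a by 1.53 (SE 0.34, adjusted p = 0.00239). With the correction for exon length these values were 0.44, 0.16 and 0.58, and none was called.

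Igf2r and Plagl1, which fell in every line, were higher in the libraries labelled KO#2 at 24 h by 1.29 (SE 0.33, adjusted p = 0.00508) and 2.42 (SE 0.56, adjusted p = 0.00282). Peg10 was higher by 2.50 (SE 0.55, adjusted p = 0.0019), or 1.76 without the library labelled KO#2 24 h replicate 1. Inpp5f was higher by 1.74 (SE 0.31, adjusted p = 0.000333). H19 had 49.2, 212 and 75.5 CPM against 24.6, 12.4 and 26.9 CPM in wt cells (log2 fold change 2.40, SE 0.77, adjusted p = 0.0208), and was not called on leaving out in turn wt 24 h replicate 1 (2.50), wt 24 h replicate 2 (2.13) and the libraries labelled KO#2 24 h replicate 2 (1.55). Zrsr1, a retrogene relative of the splicing factor gene Zrsr2 that lies inside Commd1, was higher by 0.65 (SE 0.23, adjusted p = 0.0368), a call lost on leaving out in turn wt 24 h replicate 1 (0.63), wt 24 h replicate 2 (0.65), wt 24 h replicate 3 (0.68), the libraries labelled KO#2 24 h replicate 2 (0.49) and KO#2 24 h replicate 3 (0.62) and with the correction for exon length (0.58). Commd1, a regulator of copper transport and NF-kB, was lower, at 18.2, 18.1 and 27.3 CPM against 81.4, 43.2 and 68.2 CPM (log2 fold change -1.60, SE 0.29, adjusted p = 0.000437). Its 2 groups were apart at 24 h, and at 0 h the difference of -0.57 was not called. Cdkn1c was lower at -2.80 (SE 0.51, adjusted p = 0.000439), Phlda2 at -1.82 (SE 0.34, adjusted p = 0.000512) and Nnat at -2.97 (SE 0.47, adjusted p = 0.000161), which was -3.62 without the library labelled KO#2 24 h replicate 3. Ascl2 was lower at -1.08 (SE 0.41, adjusted p = 0.0472), a call lost on leaving out in turn wt 24 h replicate 1 (-1.22), wt 24 h replicate 3 (-0.61), the libraries labelled KO#2 24 h replicate 1 (-1.04), KO#2 24 h replicate 2 (-1.21) and KO#2 24 h replicate 3 (-0.98) and with the correction for exon length (-0.70). The correction added calls of Snrpn at 0.79 (adjusted p = 0.0247), Mirg at -0.81 (adjusted p = 0.0454) and Nap1l5 at 2.11 (adjusted p = 0.0325).

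The KO lines also differed from each other. At 0 h 14 of 37 members were called between the libraries labelled KO#2 and KO#1, 12 higher and 2 lower, beside 15.1% of all genes higher and 11.3% lower, with a median of 0.54 against 0.02 (0.53 with bounds). At 24 h 15 were called, 12 higher and 3 lower, beside 19.3% and 16.1%, with a median of 0.46 against 0.14. On library sizes alone 15 and 26 were called, all higher, in a setting that moved the median of all genes by 0.31 and 1.07, and with the correction for exon length 8 were higher and 4 lower at 24 h. Kcnq1ot1 was higher in the libraries labelled KO#2 by 2.47 (SE 0.41, adjusted p = 0.000684) at 0 h and 3.04 (SE 0.42, adjusted p = 6.5e-05) at 24 h. Ube3a was higher by 1.46 and 1.92 (adjusted p = 0.00078 and 4.25e-05). Commd1 was lower at -1.06 and -1.80 (adjusted p = 0.0125 and 0.000208), the first of which was not called without the library labelled KO#2 0 h replicate 1 (-0.86). Cdkn1c was higher at 0 h by 2.78 (SE 0.68, adjusted p = 0.00722), or 2.13 without the library labelled KO#2 0 h replicate 2, and at 24 h the lines were not called different, at -0.40 (SE 0.49, adjusted p = 0.548). Meg3 was higher at 24 h by 2.20 (SE 0.39, adjusted p = 0.000414), Magel2 by 2.44 (SE 0.55, adjusted p = 0.00243) and Mkrn3 by 1.67 (SE 0.34, adjusted p = 0.00131). Rian at 24 h was higher by 0.98 (SE 0.31, adjusted p = 0.0197), a call lost on leaving out in turn KO#1 24 h replicate 2 (0.98), KO#1 24 h replicate 3 (0.82) and the libraries labelled KO#2 24 h replicate 3 (0.57), and it was at -0.01 with the correction for exon length, without a call. For Gnas, Mcts2 and Snrpn the direction at 24 h turned on the scaling, with -0.14, -1.04 and -0.09 by TMM and 0.89, 0.12 and 0.94 on library sizes alone.

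The other calls between the KO lines at 0 h were 9 higher and 1 lower. H19 was higher by 3.95 (adjusted p = 0.00276), or 4.66 without KO#1 0 h replicate 1 and 3.00 without the library labelled KO#2 0 h replicate 2. Peg3 was higher by 2.25, Ppp1r9a by 1.83, Zrsr1 by 1.02 and Impact by 1.35 (adjusted p = 0.000252, 0.00187, 0.00583 and 0.00635). Peg10 was higher by 2.23 (adjusted p = 0.00691), or 2.92 without KO#1 0 h replicate 1. Usp29 was higher by 2.43 (adjusted p = 0.00987), and with the correction for exon length it was 1.69 and not called. Zim1 was higher by 2.37 (adjusted p = 0.0161), a call lost without the library labelled KO#2 0 h replicate 1 (2.23). Sgce was higher by 1.38 (adjusted p = 0.024), a call lost on leaving out in turn KO#1 0 h replicate 2 (1.18), KO#1 0 h replicate 3 (1.34), the libraries labelled KO#2 0 h replicate 1 (1.40) and KO#2 0 h replicate 2 (1.17) and with the correction for exon length (0.97). Mest was lower at -1.40 (adjusted p = 0.00789), a call lost without KO#1 0 h replicate 3 (-0.72). At 24 h 6 more members were higher and 2 lower. Peg3 was higher by 1.43 (adjusted p = 0.00142), Usp29 by 1.31 (adjusted p = 0.0324), Ppp1r9a by 1.18 (adjusted p = 0.0122) and Inpp5f by 0.78 (adjusted p = 0.0474). With the correction for exon length these were 0.41, 0.32, 0.12 and 0.19, and none was called. The call of Usp29 was also lost on leaving out in turn KO#1 24 h replicate 1 (0.91), KO#1 24 h replicate 2 (1.38), the libraries labelled KO#2 24 h replicate 1 (1.31) and KO#2 24 h replicate 3 (1.17), that of Ppp1r9a on leaving out in turn KO#1 24 h replicate 3 (0.998) and the libraries labelled KO#2 24 h replicate 1 (1.002), and that of Inpp5f on leaving out in turn KO#1 24 h replicate 1 (0.77), KO#1 24 h replicate 2 (0.91), KO#1 24 h replicate 3 (0.60), the libraries labelled KO#2 24 h replicate 1 (0.74), KO#2 24 h replicate 2 (0.84) and KO#2 24 h replicate 3 (0.78). Peg10 was higher by 1.78 (adjusted p = 0.0149), a call lost on leaving out in turn KO#1 24 h replicate 1 (1.62) and the libraries labelled KO#2 24 h replicate 1 (1.04), and Zrsr1 by 0.75 (adjusted p = 0.0194), a call lost on leaving out in turn KO#1 24 h replicate 1 (0.67), KO#1 24 h replicate 3 (0.67) and the libraries labelled KO#2 24 h replicate 2 (0.58). Phlda2 was lower at -1.27 (adjusted p = 0.00719). Mcts2 was lower at -1.04 (adjusted p = 0.0419), a call lost on leaving out in turn KO#1 24 h replicate 1 (-0.82), KO#1 24 h replicate 2 (-0.93), the libraries labelled KO#2 24 h replicate 1 (-0.81) and KO#2 24 h replicate 2 (-1.02) and with the correction for exon length (-0.78). The correction added calls of Gnas at -1.05 (adjusted p = 0.00241) and Mkrn3 at 1.09 (adjusted p = 0.0168) at 0 h, and of Sgce at -1.38 (adjusted p = 0.0177), Gnas at -0.78 (adjusted p = 0.00887) and Ndn at 0.98 (adjusted p = 0.0321) at 24 h.

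The feeder layer bears on H19, Igf2, Dlk1 and Meg3, which fibroblasts transcribe. A fibroblast score was taken per library by averaging the log2 CPM (prior count 2) of 8 genes: the collagens Col1a1, Col3a1 and Col1a2, the matrix genes Dcn, Postn and Lox, and Acta2 and Thy1. At 0 h their summed CPM ran from 109.9 to 389.8 in wt cells, from 183 to 514 for KO#1 and from 331 to 897 among the libraries labelled KO#2. At 24 h the ranges were 19.03 to 34.5, 38.7 to 51.8 and 70.9 to 219. With time 6 of the 8 fell and Dcn rose in wt cells and likewise in KO#1, while 3 fell in the libraries labelled KO#2. Of all genes, 24.7%, 20.6% and 13.3% were called lower in these lines in turn, and 26%, 20.1% and 12.7% higher. Dcn had 0 counts in all wt libraries at 0 h. Against wt cells, 4 of 8 were higher in the libraries labelled KO#2 at 0 h and 6 of 8 at 24 h, beside 21.5% and 21.3% of all genes. The score was then related to each gene over the 9 libraries of a time, each as its deviation from its group mean, with two-sided exact permutation within groups and Benjamini-Hochberg adjustment over the 8 relations. Only Igf2 at 0 h passed, with Pearson's r = 0.920 (exact p = 0.00463, the smallest the design allows, adjusted p = 0.0370) and Spearman's rho = 0.933 (exact p = 0.00463, adjusted p = 0.0370). Dropping the 2 libraries with scores farthest from the median gave r = 0.854. On library sizes alone the relation did not pass, at r = 0.918 (exact permutation, adjusted p = 0.0926). Igf2, a fetal growth factor, had 4.59, 3.49 and 1.67 CPM in wt cells, 6.64, 3.34 and 3.21 CPM in KO#1 and 5.44, 3.05 and 14.6 CPM among the libraries labelled KO#2 at 0 h. The highest library, replicate 3 of the last group, was also the one with the highest fibroblast score.

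The relation of H19 with the score did not pass at 0 h (r = 0.002, exact p = 0.991, rho = 0.067, exact p = 0.889, adjusted p = 0.991 and 0.889, r = 0.388 without the 2 farthest). Without the library labelled KO#2 0 h replicate 3, which had the highest score and the lowest H19 of its group, r was 0.882 (adjusted p = 0.222). Dlk1 had r = 0.407 (exact p = 0.366, rho = 0.283, exact p = 0.514, adjusted p = 0.540 and 0.587) and r = 0.343 without the 2 farthest. Meg3 had r = 0.663 (exact p = 0.130, rho = 0.650, exact p = 0.111, adjusted p = 0.407 and 0.444) and r = 0.734 without them. None of these passed at this number of libraries. At 24 h no relation passed: r was -0.406 for H19 (exact p = 0.472, rho = -0.383, exact p = 0.468), 0.681 for Igf2 (exact p = 0.153, rho = 0.533, exact p = 0.255), 0.355 for Dlk1 (exact p = 0.417, rho = 0.5, exact p = 0.278) and 0.460 for Meg3 (exact p = 0.431, rho = 0.450, exact p = 0.389), with adjusted p-values from 0.407 to 0.587. Without the 2 farthest libraries these were 0.397, 0.151, -0.022 and -0.436. Igf2 was not called in any comparison of the main fit, nor with the score as a covariate, so its lack of a call tells nothing about the score. With the score as a covariate in the fit, H19 in the libraries labelled KO#2 against wt cells was 4.33 (adjusted p = 0.00723) at 0 h and 2.55 (adjusted p = 0.145) at 24 h. The fall of Meg3 with time was -0.65 in wt cells and -1.37 in KO#1 in that fit, without a call. Plagl1 and Mest kept their calls with time in all 3 lines, and Kcnq1ot1 against wt cells was 2.19 at 0 h and 2.86 at 24 h. In that fit 13 members were called with time in wt cells. Against wt cells at 24 h, 6 were called in the libraries labelled KO#2, which were Ube3a, Inpp5f, Zrsr1, Commd1, Nnat and Kcnq1ot1. Because the score itself changes with time and line, this fit removes part of any difference that runs with it.

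**Figure D5:**
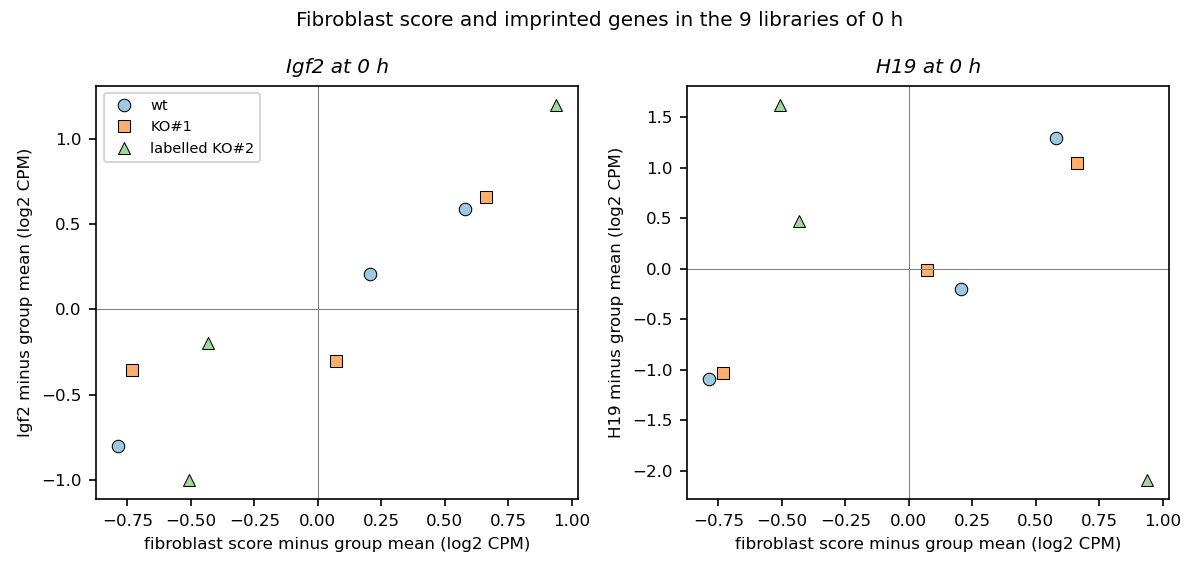
Deviation of Igf2 (left) and H19 (right) from the group mean against the deviation of the fibroblast score, both in log2 CPM, in the 9 libraries at 0 h; symbols are lines. Igf2 has r = 0.920 and H19 r = 0.002.

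Trophoblast and primitive endoderm express several members strongly, and their markers were read in the same libraries. Of the trophoblast markers Cdx2, Gata3, Elf5, Hand1 and Krt7, 4 were tested, and 0 of 4 were called in the libraries labelled KO#2 against wt cells at 0 h and 1 of 4, Hand1, at 24 h. Of all genes, 21.5% were called higher and 16.6% lower there at 0 h, and 21.3% and 16% at 24 h. The summed CPM of these trophoblast markers at 0 h was 2.92 to 10.2 in wt cells, 1.25 to 5.99 in KO#1, and 9.94, 10.96 and 1.49 in replicates 1, 2 and 3 labelled KO#2, where H19 was 294, 656 and 49.5 CPM. At 24 h it was 1.80 to 2.87 in wt cells, 3.17 to 3.79 in KO#1, and 3.86, 7.89 and 1.69 in those replicates, where H19 was 49.2, 212 and 75.5 CPM. Elf5 had 0 counts in all wt and KO#1 libraries at 0 h and at most 0.441 CPM in any library. The replicate with the highest trophoblast sum was also highest in H19 at either time in this clone. Cdkn1c in those replicates was 3.00, 5.08 and 0.719 CPM at 0 h, in the same order as the trophoblast sum. At 24 h it was 3.24, 5.41 and 8.07 CPM, in another order. The part of these cells in the results for H19 and Cdkn1c was not tested. All 6 primitive endoderm markers (Gata4, Gata6, Sox17, Sox7, Pdgfra and Dab2) were higher in the libraries labelled KO#2 than in wt cells at 24 h, with summed CPM of 14.2 to 28.2 against 1.36 to 1.99. KO#1 had 2.99 to 7.79 at 24 h, and their part in the members' differences was not tested.

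The factors that keep imprints were measured in the same cells. Of 13 genes on that list, 5 were called with time in wt cells (4 higher, 1 lower), 2 in KO#1 (1 and 1) and 5 among the libraries labelled KO#2 (4 and 1). These are 38.5%, 15.4% and 38.5% of the list. Of all genes, 26% were called higher and 24.7% lower in wt cells, 20.1% and 20.6% in KO#1, and 12.7% and 13.3% among the libraries labelled KO#2. The medians of the list were 0.22, 0.35 and 0.36, beside 0.03, 0.00 and -0.03 over all genes. Zfp57, which reads the methylated motif, fell in wt cells from 258, 203 and 268 CPM to 114, 134 and 127 CPM (log2 fold change -0.96, SE 0.22, adjusted p = 0.00159). Dppa3, which protects the maternal genome from demethylation, fell in KO#1 (-1.97) and among the libraries labelled KO#2 (-2.90; adjusted p = 0.00666 and 0.000794). At 0 h it had been higher than in wt cells in both, by 2.17 and 2.00 (adjusted p = 0.0216 and 0.00948). Dppa3 then had 5.34, 4.59 and 21.35 CPM in KO#1, with replicate 3 far above the others. It had 10.06, 14.1 and 4.36 CPM in the libraries labelled KO#2 and 2.62, 3.21 and 1.42 CPM in wt cells. Against wt cells, KO#1 had 2 of 13 called at 0 h (1 higher, 1 lower) and 2 at 24 h (both lower). Of all genes, 3.99% were called higher and 2.68% lower there at 0 h, and 6.25% and 3.61% at 24 h. For the libraries labelled KO#2, 9 of 13 were called at 0 h, 5 higher and 4 lower, and 3 at 24 h, 2 higher and 1 lower. The shares of all genes were 21.5% higher and 16.6% lower at 0 h, and 21.3% and 16% at 24 h. Setdb1, a histone H3K9 methyltransferase, was lower than in wt cells in both KO lines at 0 h, at -0.88 and -0.96 (adjusted p = 0.0209 and 0.00331), and at 24 h, at -0.87 and -0.76 (adjusted p = 0.0155 and 0.0122). Dnmt1, the maintenance methyltransferase, and Uhrf1, its partner, were lower in the libraries labelled KO#2 at 0 h, at -0.96 (SE 0.27, adjusted p = 0.0103) and -1.23 (SE 0.29, adjusted p = 0.00409). Trim28 also lay below all wt libraries there, while Zfp445, Atrx, Smchd1 and Arid4b lay above all of them. Zfp445 had 47.19, 40.02 and 50.3 CPM in the libraries labelled KO#2 at 0 h and 14.42, 20.74 and 21.51 CPM in wt cells. Atrx had 511.5, 471 and 412.5 CPM against 130.5, 180.7 and 144.8 CPM. Values with the correction for exon length or with a library left out were taken for the members alone, and not for these genes. Of 28 further imprinted genes, 25 were in the table and 20 were tested. With time 10 were called in wt cells (5 higher, 5 lower), 12 in KO#1 (7 and 5) and 8 among the libraries labelled KO#2 (5 and 3), with medians of 0.14, 0.14 and 0.05. These counts are 50%, 60% and 40% of the 20, beside the shares and medians of all genes given for the 13. Against wt cells 0 and 3 of the 20 (0% and 15%) were called in KO#1 at 0 h and 24 h. Among the libraries labelled KO#2 5 and 7 were called (25% and 35%), again beside the shares of all genes given for the 13.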

How the data were processed

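RNA from 18 libraries was measured as gene counts. The authors made the deposited counts, per the study's methods, from stranded, ribosomal RNA-depleted total RNA, sequenced in pairs, trimmed with Trim Galore and aligned with STAR to GRCm38. The counting tool's settings, the annotation release and the use of strand are not given in the sources used here. DESeq2 is named, without a version, in the submitters' processing notes. Groups came from the sample labels, and 0 of 153 pairs of libraries held identical values.

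The deposited counts were analysed in edgeR 4.0.16 (R 4.3.3), with TMM factors (0.5075 to 1.451), filterByExpr with a minimum count of 10 and 1 quasi-likelihood model of 6 groups with 11 contrasts over 16619 genes, Benjamini-Hochberg adjusted at 0.05. Log2 CPM used a prior count of 2, and a level under 3 counts was treated as not detected. Totals ran from 3466436 to 23872837. Gene positions and exon lengths came from GENCODE M21 and promoters from RefSeq. Named genes were all 40 members, other list genes a result turns on, and Hmga2. The members and lists were chosen with earlier results of these data known. The method was tested on simulated data. Replicate numbers were taken to pair the libraries of 2 groups where the deviations of every same-numbered pair from the group means correlated at over 0.1, which held only for wt and KO#1 at 24 h (r = 0.4797, 0.2231 and 0.5869), and not for the other pairs of groups. Alternatives were DESeq2 1.42.0, RLE factors, library sizes alone, other filters and thresholds, only the groups compared, a replicate block, the fibroblast score as a covariate, each library left out, and a correction for exon length in 20 bins over 16517 genes, added after seeing the data. Figures were drawn with matplotlib 3.10.9 in Python 3.11.15.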

Additional observations from a re-analysis of the deposited data

Results flagged for a closer look

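The response of Cdkn1c to the induction differed between wt cells and the libraries labelled KO#2, by a test of the difference itself. The interaction term was -3.355 on the log2 scale (edgeR adjusted p = 0.0324), from a rise of 4.28 in wt cells and a value of 0.92 in the libraries labelled KO#2. The call was lost on leaving out in turn wt 0 h replicate 2 (-3.12), wt 0 h replicate 3 (-3.11), wt 24 h replicate 1 (-3.35), wt 24 h replicate 2 (-3.38), wt 24 h replicate 3 (-3.24), the libraries labelled KO#2 0 h replicate 1 (-3.34), KO#2 0 h replicate 2 (-2.71), KO#2 24 h replicate 1 (-3.09) and KO#2 24 h replicate 2 (-3.33). At 24 h Cdkn1c had 38.5, 35.8 and 42.5 CPM in wt cells and 3.24, 5.41 and 8.07 CPM in those libraries. At 0 h wt cells had 3.93, 1.47 and 1.5 CPM, and those libraries had 3.00, 5.08 and 0.719 CPM. The value of 0.92 thus starts from 0 h libraries that differed widely among themselves. Groups of 3 libraries were not searched for single libraries standing apart.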

How the results depend on the processing

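Here KO#2 stands for the libraries labelled KO#2. Of 407 pairs of a member and a comparison, 132 were called. Of these, 90 kept their call with each library left out and 63 under all settings. Over 7172 refits, 6668 kept their side of the threshold, 318 lost a call and 182 gained one. Direction was compared only for pairs called in the main fit or in the refit, and there 4 changed direction. Those 4 were KO#2 against KO#1 at 24 h: on library sizes alone Gnas 0.894, Mcts2 0.123 and Snrpn 0.939, and with the exon-length correction, chosen after seeing the data, Rian -0.006. Scaling itself sets the first 3, and otherwise the cause was not tested.

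Counts of members called moved by more than 1.5 times as follows. With at least 10 counts in every library, which tests fewer genes, 12 were called with time in wt cells, 12 in KO#1 and 8 in KO#2, 1 and 2 for KO#1 against wt at 0 h and 24 h, and 0 in the KO#2 interaction. The fibroblast covariate gave 13 with time in wt cells, 6 for KO#2 against wt and 8 for KO#2 against KO#1 at 24 h. At adjusted p under 0.01 there were 10 with time in KO#2, 3 and 2 for KO#1 against wt at 0 h and 24 h, 8 for KO#2 against KO#1 at 24 h and 0 in the KO#2 interaction. Library sizes alone gave 3 for KO#1 against wt at 0 h, 26 for KO#2 against wt and 26 against KO#1 at 24 h, and 3 in the KO#2 interaction. Without a filter there were 9 for KO#1 against wt at 0 h, 1 in the KO#1 and 5 in the KO#2 interaction. Only the groups compared gave 2 for KO#1 against wt at 0 h and 2 in the KO#2 interaction, DESeq2 gave 2 and 4 in the interactions, RLE 2 and the exon-length correction 3 in that of KO#2.

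With each library left out, the counts were 15 to 20, 17 to 20 and 11 to 16 with time in wt cells, KO#1 and KO#2. Against wt they were 2 to 5 (0 h) and 2 to 5 (24 h) for KO#1, and 15 to 18 and 14 to 17 for KO#2. KO#2 against KO#1 gave 11 to 15 and 12 to 13, and the interactions 0 to 1 and 0 to 4. The r of Igf2 with the fibroblast score at 0 h was 0.918 on library sizes alone (adjusted p = 0.0926) and 0.863 to 0.958 with a library left out, where 8 libraries cannot reach the threshold.

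Replicate numbers met the rule for pairing only between wt and KO#1 at 24 h, where the replicate block added the call of Magel2 and changed no other. Over all groups, same-numbered libraries correlated at a mean r of 0.05306 and others at -0.02663. With the block, 4 members were called in the KO#2 interaction. Genes at few counts, such as Nap1l5, Asb4 and Zim1, are limited by depth.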
